A study of Zea mays with 15 samples.

Results

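Growing maize leaves exposed to solar UV-B were compared between zone 3, the segment 2 to 3 cm above the leaf base, and zone 2, the segment 1 to 2 cm above it. This step used 5 of the 15 libraries of the series: UV-B zone 3 replicates 2 and 3, set against UV-B zone 2 replicates 1, 2 and 3. UV-B zone 3 replicate 1 held only 728 reads and was left out. All plants were of the inbred line B73 and grew outdoors in summer under plastic film, and leaf 4 was cut into 10-mm segments 3 days after it emerged. At noon the film over the UV-B plants passed 1.5 W/m2 of UV-B on average. The film over the control plants still passed 0.35 W/m2, so these plants were shielded and not free of UV-B, and either film let through UV-A at 8 W/m2. The control step from zone 2 to zone 3 (3 and 2 libraries) and the 1 library of UV-B zone 1 (0 to 1 cm) serve as context. The labels call the replicates biological and state that the experiment was done 3 times, without tying a replicate number to a repeat or giving the number of leaves in a library.

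A grass leaf grows from its base. Cells divide in the lowest part, then leave the cell cycle and elongate by taking up water while their walls are loosened, and then mature, when walls are reinforced and chloroplasts are built. Growth-regulating factors with their GIF coactivators keep cells dividing, expansins loosen the wall, aquaporins let water pass membranes, and the C4 pathway of maize shares photosynthesis between mesophyll and bundle sheath cells. Segments at successive heights therefore hold cells at successive stages. In bulk RNA from a segment, fewer cells of a kind and less RNA per cell of that kind cannot be told apart.

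The zone 3 libraries were the shallower ones, with 4665312 reads in replicate 2 and 1673416 in replicate 3, against 9471340 to 13887955 reads in the UV-B zone 2 libraries. A level of 3 reads, the least taken as detectable here, is 0.643 and 1.79 CPM in the zone 3 libraries, CPM being reads per 1000000 reads of the library. Marker genes differed between the zones as follows. Markers of dividing cells, 6 genes, summed to 35.9 to 116 CPM in zone 3 and 260 to 458 CPM in zone 2. Markers of elongating cells, 6 genes, summed to 362 to 721 CPM in zone 3 and 86.6 to 140 CPM in zone 2. The sums of 3 bundle sheath markers were 414 to 524 and 50.3 to 103 CPM. Most of these came from 1 of them, the Rubisco gene ssu1, with 387 to 504 and 35.6 to 87.5 CPM. The sums for 7 photosynthetic genes lay at 1848 to 4835 and 538 to 1819 CPM, and those for 6 genes of vasculature and secondary wall overlapped, at 121 to 184 CPM in zone 3 and 100 to 138 CPM in zone 2. The meristem gene kn1 was at 0 in both zone 3 libraries and at no more than 0.144 CPM in zone 2, the 5 ligule and sheath boundary genes summed to at most 3.74 CPM, and 6 of 8 pollen and 5 of 8 seed markers had no read in any of the 5 libraries. The root hair gene rth3 had 5.38 to 11.4 CPM in zone 3 and 14.6 to 19.5 CPM in zone 2. The part of these markers in the results below was not tested.

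Between zone 3 and zone 2 under UV-B, 1637 of 23899 tested genes differed at an adjusted p under 0.05 by edgeR's quasi-likelihood test, which is 6.85% and is what "called" means below. Of these, 800 genes were higher in zone 3 (3.35%) and 837 were lower (3.5%). The called genes changed by a median log2 fold change of 1.67 upward and -1.70 downward, and 664 of the higher and 699 of the lower genes changed at least 2-fold. The groups did not overlap for 1619 of the called genes, while over all tested genes zone 3 lay wholly above zone 2 for 15.9% and wholly below for 20.2%. All 1637 had the same direction in replicate 2 and in replicate 3, which the calls largely fix, against 73% of all tested genes. Libraries of the same replicate number resembled each other in their deviations from group means (r 0.135 to 0.662, against -0.662 to 0.374 in other pairs). Deviations within a group cancel out, so the other pairs partly mirror the same-numbered ones and are not an independent contrast. A model with the replicate number as a block called 5447 genes (22.8%), 2479 higher (10.4%) and 2968 lower (12.4%). Among them were 1627 of the 1637 with the same sign.

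The number of calls rested on few libraries. Without UV-B zone 3 replicate 3 it was 0, with 3773 genes at an unadjusted p under 0.05, and without UV-B zone 2 replicate 2 it was 291. It was 0 when the 5 libraries were fitted alone, with 3931 genes at an unadjusted p under 0.05, and 5303 when they were fitted alone with the replicate block. DESeq2 called 2880 genes and limma-voom 960. Reads assigned to a single transcript, 45.3% to 47.9% of the reads of a fitted library, gave 445 calls. By that definition, reads shared between transcripts of the same gene are left out too.

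**Figure D1:**
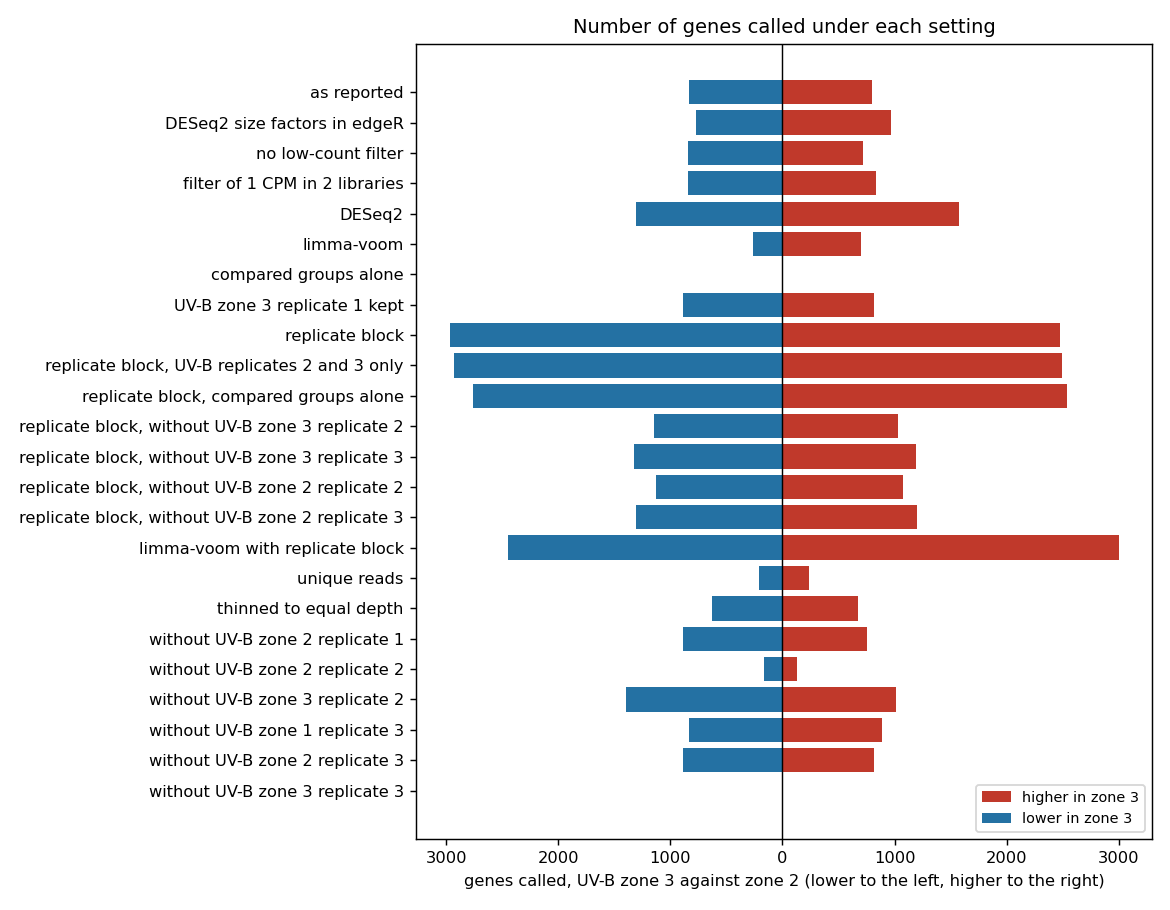
Number of genes called between UV-B zone 3 and UV-B zone 2 under each setting, with genes higher in zone 3 drawn to the right of the line and genes lower in zone 3 to the left. The bars span from 0 calls without UV-B zone 3 replicate 3, and for the 5 libraries alone, to 5449 calls by limma-voom with the replicate block.

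Genes called higher took 5.45% and 9.51% of all reads in zone 3 replicates 2 and 3, against 2.45%, 1.95% and 2.91% in zone 2 replicates 1, 2 and 3. Genes called lower took 1.51% and 1.16% of the reads in zone 3, against 3.35%, 4.57% and 3.55% in zone 2. These shares follow from the calls and are given to show their weight in the libraries. Of the genes called higher, 73 stayed under 1 CPM in all 3 zone 2 libraries, and 15 of them averaged at least 10 CPM in zone 3. Of the genes called lower, 58 were under 1 CPM in both zone 3 libraries and 1 of these averaged at least 10 CPM in zone 2.

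The largest rises among genes with a name and at least 10 CPM in zone 3 were those of CER1, expB6, xth1, Ppdk1, znod1, PIP2-3, MYB61, fdx2, aba1 and PLTZ11. CER1 (GRMZM2G066578, chromosome 5, 29918039 to 29925862), named for an Arabidopsis gene of wax alkane synthesis, had 1.29 and 122 CPM in zone 3 replicates 2 and 3, against 0, 0 and 0.0832 CPM in zone 2. The zone 2 value is a single read, so the ratio of 1172 has a 95% counting interval from 208 to 46520, and nearly all zone 3 reads were in replicate 3. The xyloglucan endotransglucosylase gene xth1 (GRMZM2G119783, chromosome 10, 69098781 to 69100591), whose product cuts and rejoins wall xyloglucan, had 19.9 and 137 CPM in zone 3, against 1.37, 1.51 and 3.16 CPM in zone 2. Its log2 fold change was 5.17 ± 0.73 (SE; adjusted p = 0.00688). The groups lay apart, with the lower zone 3 library well above the highest of zone 2.

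The remaining rises covered several functions. The gene expB6, a beta-expansin, had 3.22 and 19.1 CPM in zone 3, against 0.106, 0.072 and 0.25 CPM in zone 2. Levels of Ppdk1 (chromosome 6, 146179403 to 146189965), which makes the carbon acceptor of the C4 cycle, were 12.2 and 41.8 CPM in zone 3 and 0.106, 0.792 and 1.50 CPM in zone 2. For znod1 they were 69.9 and 267 CPM in zone 3 against 9.5, 4.10 and 7.23 CPM in zone 2, with a log2 fold change of 4.50 ± 0.56 (adjusted p = 0.00573). All groups in these comparisons lay apart. MYB61, a MYB transcription factor gene, had 27.2 and 146 CPM in zone 3 and 0.95, 0.072 and 11.5 CPM in zone 2, where replicate 3 stood above the other libraries. The ferredoxin gene fdx2 had 24.2 and 46.6 CPM in zone 3, against 2.64, 1.30 and 0.998 CPM in zone 2. The gene listed as aba1 and asr1 had 20.4 and 163 CPM in zone 3, against 1.90, 2.45 and 9.48 CPM in zone 2, and PLTZ11 had 4.07 and 19.7 CPM against 0.634, 0.144 and 1.16 CPM. In all 10 genes replicate 3 was the higher of the zone 3 libraries. Without that library their log2 fold changes were 2.30 (aba1) to 5.12 (CER1), against 4.09 (PLTZ11) to 6.05 (expB6) with it, and 10.4 as fitted for CER1.

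Among the 10 largest falls were cyclin and kinesin-related genes, which serve cell division. The cyclin gene cyclin11 (GRMZM2G161382, chromosome 2, 163951422 to 163953820) had 1.07 and 0.598 CPM in zone 3, against 7.60, 10.3 and 13.4 CPM in zone 2, a log2 fold change of -3.44 ± 0.49 (adjusted p = 0.00694). Its zone 3 level rests on 6 reads over both libraries. The kinesin-related gene krp11 (GRMZM2G436981, chromosome 7, 1144795 to 1151528), of the motor proteins that move along microtubules, had 11.8 and 6.57 CPM in zone 3, against 51.0, 111 and 74.2 CPM in zone 2. Another one, krp13, had 30.4 and 0.598 CPM in zone 3 and 112, 185 and 106 CPM in zone 2. Here zone 3 replicate 3 lay below the level of 3 reads and replicate 2 well above it. Levels of cyclin-A1 were 8.57 and 2.39 CPM in zone 3 and 47.6, 60.3 and 31.2 CPM in zone 2. For kin2 they were 10.9 and 3.59 CPM in zone 3 and 55.6, 104 and 62.6 CPM in zone 2.

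ARF4 (GRMZM2G034840, chromosome 2, 3342916 to 3349175), an auxin response factor gene, had 0.643 and 1.79 CPM in zone 3, against 7.81, 10.9 and 12.1 CPM in zone 2. Its zone 3 level, too, rests on 6 reads over both libraries. The second gene named CER1 (GRMZM2G099097, chromosome 4, 171759786 to 171764794) moved opposite to the one above, with 2.57 and 0.598 CPM in zone 3 and 15.2, 26.4 and 13.6 CPM in zone 2. CSLD1, a cellulose synthase-like gene, had 9.43 and 5.38 CPM in zone 3, against 60.2, 70.3 and 43.7 CPM in zone 2. The others were HB2, a homeobox gene (log2 fold change -2.95 ± 0.69, adjusted p = 0.0294), and cha101 (-2.71 ± 0.51, adjusted p = 0.0138). Zone 3 lay below zone 2 without overlap in all 10. Without UV-B zone 3 replicate 3 their log2 fold changes were -3.87 (ARF4) to -2.05 (krp13).

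**Figure D2:**
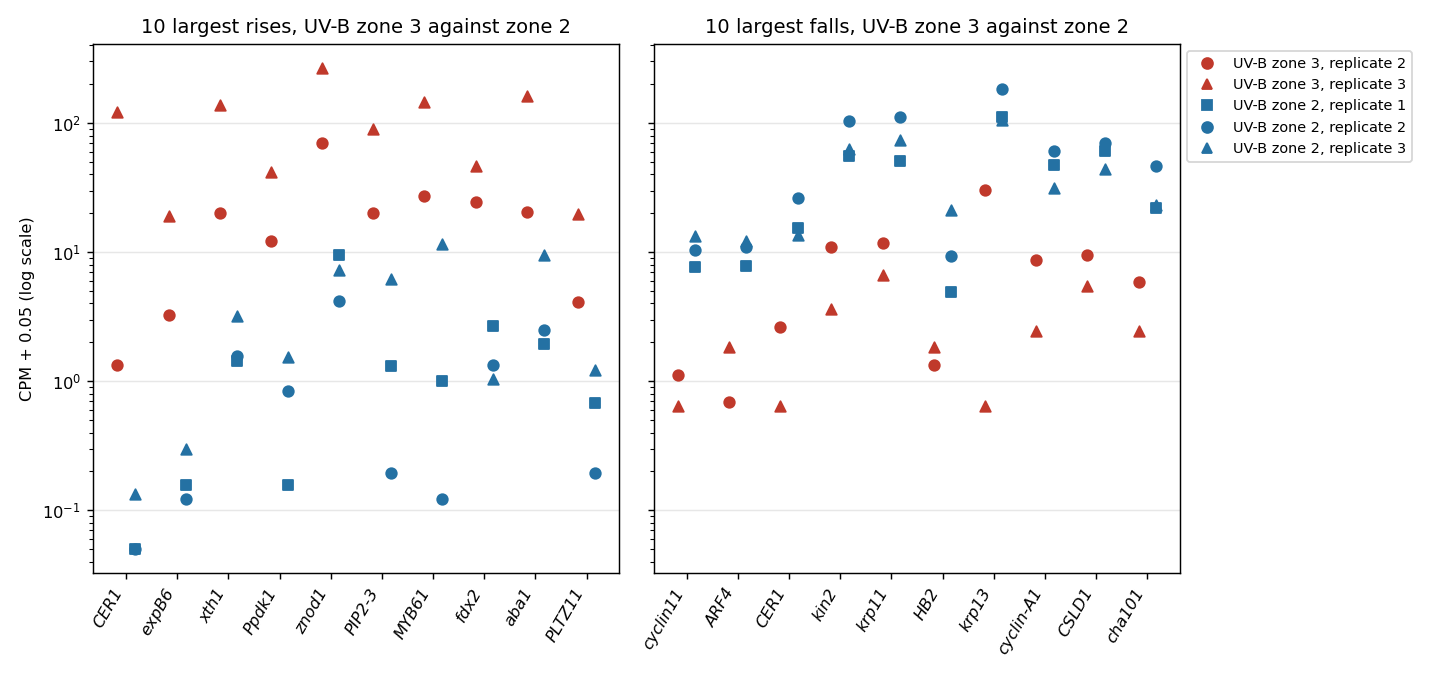
CPM plus 0.05 on a log axis in each UV-B library for the 10 named genes with the largest rises (left panel) and the 10 with the largest falls (right panel), with zone 3 libraries (red) left of zone 2 libraries (blue) and replicates 1, 2 and 3 drawn as squares, circles and triangles. Zone 3 replicate 3, the red triangle, is the higher zone 3 point for all 10 rises, as for xth1 with 137 CPM against 19.9 CPM in replicate 2.

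Most called genes had no informative name: only 216 of the 1637 did. The 4 unnamed genes that follow were chosen after their values were seen, for the largest changes at 10 CPM or more. GRMZM2G009465 had 222 and 3577 CPM in zone 3, against 0.634, 2.45 and 8.98 CPM in zone 2. GRMZM2G418343 had 102 and 1109 CPM in zone 3, against 0.422, 0.072 and 4.24 CPM in zone 2. Downward, GRMZM2G083526 had 1.50 and 0.598 CPM in zone 3 and 36.1, 58.6 and 52.9 CPM in zone 2, and GRMZM2G010912 had 2.14 and 0 CPM in zone 3 and 30.6, 50.4 and 21.9 CPM in zone 2. In the control step these genes had log2 fold changes of 10, 10.1, -5.85 and -4.66.

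Medians of the lists for growth and division lay below the median of all tested genes, which was -0.08. Of 18 growth-regulating factors and GIF coactivators, 4 fell and 0 rose (8 fell with the replicate block; median log2 fold change -0.98). GIF1 (GRMZM2G180246, chromosome 1, 273393235 to 273396891), a coactivator of growth-regulating factors, had no read in either zone 3 library, against 6.97, 6.48 and 5.32 CPM in zone 2. With 3 reads over the zone 3 libraries as the floor, 0.473 CPM, it was at least 13.1-fold lower in zone 3. GRF3 had 2.57 and 1.79 CPM in zone 3, against 12.1, 13.5 and 9.40 CPM in zone 2, and GRF1 (GRMZM2G178261) had 32.2 and 12.0 CPM against 56.8, 96.7 and 67.4 CPM. No zone 3 value of these genes reached the zone 2 range. A second gene named GRF1 (GRMZM2G034876) had a log2 fold change of -1.06 and was not called. The fourth call was GRF2, with 7.50 and 1.79 CPM in zone 3 and 15.4, 14.9 and 19.9 CPM in zone 2. Its log2 fold change of -1.61 ± 0.39 (adjusted p = 0.0309) was -3.34 without zone 3 replicate 2 and -1.05 without replicate 3.

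Of 21 DNA replication genes 6 fell and none rose, and with the replicate block 17 fell (median log2 fold change -1.59). RNRL2, a large-subunit gene of the ribonucleotide reductase that makes DNA precursors, had 14.8 and 7.77 CPM in zone 3, against 39.0, 70.7 and 41.6 CPM in zone 2. DP2, partner of the E2F factors that switch on replication genes, had 13.1 and 13.1 CPM in zone 3 and 31.3, 50.3 and 33.7 CPM in zone 2. The origin recognition gene orc3 had 6.64 and 6.57 CPM in zone 3 and 16.8, 23.2 and 19.8 CPM in zone 2. For DP2 and orc3 the zone 3 libraries were nearly equal, so the size of these falls hardly depended on which one was taken: their log2 fold changes without replicate 3 were -1.46 and -1.49, against -1.56 and -1.59 with it. Of 27 genes of mitosis and the cell cycle, 14 fell and none rose (18 fell with the block; median -1.86). Beside cyclin11 and krp11, the kinetochore gene MIS12-1 had 1.93 and 1.79 CPM in zone 3, against 12.5, 9.58 and 8.48 CPM in zone 2 (log2 fold change -2.44 ± 0.39, adjusted p = 0.00887).

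Histone genes gave the widest gap between the models. Of 32 tested, 1 fell without the block (3.12%, against 3.5% of all tested genes). With the block 32 fell, and all 32 had negative log2 fold changes (median -1.82). The called one, the histone H4 gene H4C7_12 (AC212565.3_FG001), had 72.7 and 29.3 CPM in zone 3, against 194, 340 and 180 CPM in zone 2. Members of this family share nearly identical sequence, so single histone genes are uncertain. Of 11 DNA repair genes 2 fell (8 with the block, and 1 rose with it; median -1.14). RAD51A, a recombinase for double-strand breaks, had 11.8 and 3.59 CPM in zone 3, against 26.9, 45.9 and 23.2 CPM in zone 2, and PARP2 (GRMZM2G124718), a poly(ADP-ribose) polymerase gene, had 8.36 and 3.59 CPM against 23.5, 30.2 and 14.9 CPM. A second gene named PARP2 (GRMZM2G099231) had a log2 fold change of -3.31 and was not called.

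Of 19 genes of DNA methylation and silencing, 5 fell and none rose (10 fell with the block). Their median log2 fold change was -1.14, or -0.93 when 2 members with no read in zone 3 were set at their bounds. The DNA methyltransferase genes dmt101 (GRMZM2G334041) and met2 had 31.9 and 17.9 CPM and 58.3 and 7.77 CPM in zone 3, against 99.0, 111 and 79.2 CPM and 187, 320 and 142 CPM in zone 2. SGS3, a gene of the trans-acting siRNA pathway also known as leafbladeless1, had 78.9 and 60.4 CPM in zone 3 and 126, 165 and 155 CPM in zone 2. The other calls were met5 and argonaute6. met5 had 46.7 and 6.57 CPM in zone 3, against 119.5, 211 and 94.2 CPM in zone 2, and its log2 fold change of -2.29 was -4.58 without zone 3 replicate 2 and -1.52 without replicate 3. argonaute6 (GRMZM2G432075) had 4.93 and 9.56 CPM in zone 3, against 11.2, 17.6 and 15.8 CPM in zone 2. Auxin response factors, which carry the transcriptional answer to auxin, fell in 7 of 16 cases and rose in none (12 fell with the block; median -0.98). ARF13 had 39.7 and 44.2 CPM in zone 3, against 93.9, 138 and 144 CPM in zone 2, and ARF30 had 24.7 and 16.7 CPM against 38.9, 61.5 and 51.6 CPM. With reads of a single transcript the log2 fold change of ARF13 was -0.34 (adjusted p = 0.928), against -1.59 with all reads.

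Of 11 expansins 4 rose and none fell (5 rose with the block; median log2 fold change 1.16). The beta-expansin gene expB4 (GRMZM2G154178) had 86.8 and 83.7 CPM in zone 3, against 29.7, 19.3 and 20.6 CPM in zone 2 (log2 fold change 1.85 ± 0.30, adjusted p = 0.00908). Its zone 3 libraries agreed closely, unlike those of expB6. expB8 had 100 and 215 CPM in zone 3 and 62.7, 61.9 and 78.5 CPM in zone 2. Its log2 fold change of 1.16 was -0.82 with reads of a single transcript alone, where it was not called (adjusted p = 0.484). The fourth call was expB2 (1.05 ± 0.26, adjusted p = 0.0327).

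Aquaporins rose in 3 of 14 cases and fell in none (8 rose with the block; median log2 fold change 0.95). PIP2-4 (GRMZM2G154628, chromosome 5, 195239678 to 195242694), a channel of the plasma membrane, had 113 and 174 CPM in zone 3, against 11.3, 4.90 and 13.6 CPM in zone 2, a log2 fold change of 3.83 ± 0.53 (adjusted p = 0.00631). PIP2-3 had 19.9 and 90.2 CPM in zone 3 and 1.27, 0.144 and 6.15 CPM in zone 2. TIP2-1, a channel of the vacuole membrane, had 57.9 and 175 CPM in zone 3 and 18.7, 3.10 and 12.5 CPM in zone 2. The UV-B zone 1 library had no read of any of these 3 genes. Of 15 tubulin genes 1 rose and 1 fell (6.67% each, against 3.35% and 3.5% of all tested genes). The beta-tubulin gene TUBB4 had 163 and 243 CPM in zone 3 against 72.5, 44.7 and 95.3 CPM in zone 2, whereas TUBB1 had 129 and 43.0 CPM against 345, 406 and 241 CPM. Members of 1 family thus moved in opposite directions, although tubulin genes can share reads.

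None of the 10 primary wall cellulose synthase genes was called without the block, and 5 rose with it (median log2 fold change 0.80). The most abundant, CesA-6, had 372 and 755 CPM in zone 3 and 234, 219 and 550 CPM in zone 2, so that the groups overlapped and replicate 3 was the highest of its zone in each. Of 11 secondary wall genes 4 rose and none fell (4 rose with the block; median 1.39). Myb20 (GRMZM2G150841), a MYB gene of the kind that controls secondary walls in Arabidopsis, had 29.8 and 74.1 CPM in zone 3, against 5.91, 2.02 and 6.65 CPM in zone 2. The gene listed as bk4 (GRMZM2G168364) had 106 and 184 CPM in zone 3 and 48.1, 43.3 and 70.1 CPM in zone 2. For myb31 (GRMZM2G050305), a repressor of lignin genes, the levels were 11.4 and 30.5 CPM in zone 3 and 3.59, 3.6 and 6.90 CPM in zone 2. MYB61 was the fourth. A second gene named myb31 (GRMZM5G892094) had a log2 fold change of -1.33 and was not called. The cellulose synthases of the secondary wall were not among the calls.

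In the phenylpropanoid and lignin pathway 4 of 13 genes rose and none fell (5 rose and 1 fell with the block; median log2 fold change 0.53). The caffeic acid O-methyltransferase gene comt (GRMZM5G814904) had 177 and 415 CPM in zone 3, against 74.2, 71.1 and 95.5 CPM in zone 2. The caffeoyl-CoA O-methyltransferase gene ccoaomt1 had 241 and 330 CPM in zone 3 and 119.5, 98.4 and 128 CPM in zone 2 (log2 fold change 1.27 ± 0.19, adjusted p = 0.00694), and CCOAOMT2 had 29.2 and 72.9 CPM against 11.5, 8.14 and 24.7 CPM. All 3 methylate monolignol precursors. PAL1 (GRMZM2G074604), for the entry enzyme phenylalanine ammonia-lyase, had 636 and 742 CPM in zone 3 and 291, 329 and 487 CPM in zone 2. Its log2 fold change was -1.04 with reads of a single transcript, where it was not called (adjusted p = 0.596), against 0.90 with all reads.

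Light-reaction genes rose in 6 of 25 cases and fell in none, and 23 rose with the block (median log2 fold change 1.54). psad1 (GRMZM2G024150, chromosome 5, 3530017 to 3531150), a subunit gene of photosystem I, had 37.5 and 43.0 CPM in zone 3, against 7.71, 2.59 and 4.41 CPM in zone 2. The log2 fold change was 3.00 ± 0.43 (adjusted p = 0.00694), and 3.01 without zone 3 replicate 3. atpc1, for a subunit of the chloroplast ATP synthase, had 67.7 and 53.2 CPM in zone 3 and 25.8, 16.3 and 18.4 CPM in zone 2. Of 7 genes of Rubisco and the Calvin cycle 4 rose (6 with the block; median 1.18). The small-subunit gene ssu1 (GRMZM2G098520, chromosome 4, 190228050 to 190230534) had 387 and 504 CPM in zone 3, against 87.5, 53.6 and 35.6 CPM in zone 2. rca1, for the activase that frees Rubisco of inhibitors, had 17.4 and 6.57 CPM in zone 3 and 2.75, 1.44 and 0.832 CPM in zone 2. TPT, the triose phosphate exporter of the chloroplast, had 128 and 178 CPM in zone 3 and 48.3, 66.6 and 92.7 CPM in zone 2, but its log2 fold change of 1.13 was 0.30 with reads of a single transcript (adjusted p = 0.793). The fourth gene, rbcS, had a log2 fold change of 2.42 ± 0.63.

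Among 7 genes of the C4 cycle 3 rose and 1 fell (3 and 1 with the block; median log2 fold change 0.57). mdh6, a malate dehydrogenase gene, had 166 and 247 CPM in zone 3, against 64.5, 47.7 and 82.5 CPM in zone 2. pep1, for the carboxylase that fixes carbon first in mesophyll cells, had 20.6 and 5.98 CPM in zone 3 and 1.27, 1.37 and 2.33 CPM in zone 2, with replicate 2 the higher one here. Ppdk1 was the other rise. The gene listed as CA (GRMZM2G087259), for a carbonic anhydrase, fell, with 2.14 and 0.598 CPM in zone 3 and 7.39, 4.97 and 11.1 CPM in zone 2. Of 23 genes for chlorophyll synthesis and chloroplast gene expression 0 were called, and 6 rose with the block (median 0.41). The most abundant, pcr1, had 1387 and 107 CPM in zone 3 and 866, 587 and 70.3 CPM in zone 2: replicate 3 was far below the other libraries in both zones.

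**Figure D3:**
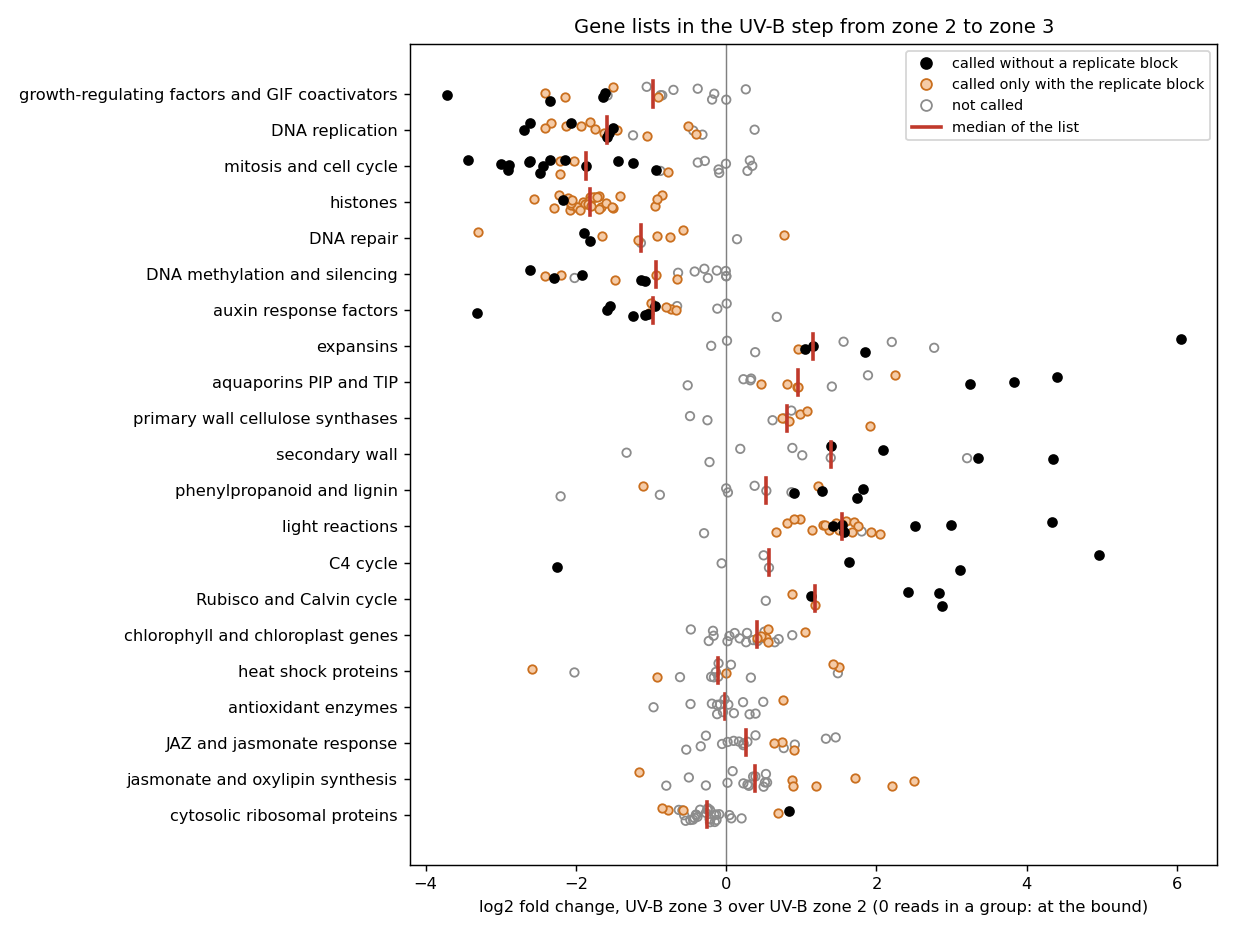
Log2 fold change of each tested member of 21 gene lists, UV-B zone 3 over UV-B zone 2, with called genes filled black, genes called with the replicate block alone in orange, other genes open, the median of each list as a red bar and genes without reads in a group at their bound. Medians of the division lists lie left of 0, as histones at -1.82, and those of expansion, walls and photosynthesis lie right of it, as light reactions with a median of 1.54.

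In the cuticle list of 6 genes 3 were called: the CER1 genes went opposite ways and glossy2, a gene of leaf wax, rose, with 498 and 305 CPM in zone 3 and 170, 84.0 and 59.2 CPM in zone 2. bronze1, for the glucosyltransferase that finishes anthocyanins, was the 1 call of 7 flavonoid genes, with 46.3 and 54.4 CPM in zone 3 and 6.86, 4.90 and 13 CPM in zone 2. Its log2 fold change of 2.62 was -3.89 with reads of a single transcript, where it was not called (adjusted p = 0.558). glu2 (GRMZM2G008247, chromosome 10, 37762908 to 37767713), a beta-glucosidase gene, was the 1 call of 12 benzoxazinoid genes. It had 184 and 730 CPM in zone 3, against 22.5, 9.29 and 96.1 CPM in zone 2, and none in the UV-B zone 1 library. Its log2 fold change of 3.42 was 0.42 with reads of a single transcript (adjusted p = 0.8925). Of 15 genes of nitrogen assimilation 1 rose (6.67%, against 3.35% of all tested genes). It was the glutamine synthetase gene gln2 (5.79 and 26.3 CPM in zone 3, 1.37, 1.37 and 2.58 CPM in zone 2).

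Among hormone and leaf-form genes, PIN10a, an auxin efflux carrier gene, was the 1 call of 7 genes of auxin transport. It had 26.4 and 40.6 CPM in zone 3, against 12.9, 9.0 and 16.6 CPM in zone 2, while the list had a median log2 fold change of -0.98, or -0.11 with a member lacking zone 3 reads at its bound. The YABBY gene yab10, of a family that marks leaf faces, had no read in zone 3 and 0.845, 2.95 and 1.00 CPM in zone 2, so it was at least 3.64-fold lower, and it was the 1 call of 7. GRMZM2G129913, whose record carries the names PHYC and Spo11-1 and whose identity is therefore uncertain, had 1.29 and 2.39 CPM in zone 3 and 8.76, 10.5 and 9.23 CPM in zone 2. Of 31 cytosolic ribosomal protein genes 1 rose (3.23%), near the 3.35% called higher over all tested genes. It was RPL29, with 253 and 326 CPM in zone 3 and 177, 136 and 158 CPM in zone 2. In this list 26 genes had negative log2 fold changes (median -0.25).

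The sizes of the named changes depended on single libraries and on the reads counted. Among 110 called genes of the naming rule, the lists and the families, with the 4 unnamed ones, leaving out UV-B zone 3 replicate 2 moved the fold by over 1.5 times in 51, of which 3 came closer to 0. Leaving out replicate 3 did so in 29, of which 28 came closer to 0. For met2 the log2 fold change of -2.61 was -4.95 without replicate 2 and -1.82 without replicate 3, and for RAD51A that of -1.90 was -3.31 and -1.36. pep1 and rca1 went the other way, to 1.73 and 1.80 without replicate 2, against 3.11 and 2.87 with it. Reads of a single transcript moved 40 of the 110 by over 1.5 times, 23 of them closer to 0, and 6 had no such value. Beside the genes given above, ccoaomt1 had 0.61, PIN10a 0.67, TUBB1 -0.91 and krp11 -1.10 with these reads, none of them called.

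In 12 lists with 143 tested genes no member was called by edgeR without the block. Beside the primary wall and chlorophyll lists these were cell number regulators, KNOX and ligule genes, gibberellin synthesis and DELLA, sucrose genes, clock, heat shock, antioxidants, jasmonate response, jasmonate synthesis and defence. Their medians lay between -0.36 (gibberellin) and 0.80 (primary wall). Jasmonate synthesis had a median of 0.39 with 6 rises and 1 fall under the block, jasmonate response 0.26 with 3 rises, and heat shock proteins -0.11 with 3 rises and 2 falls. The defensin gene DEF1 had 182 and 38.2 CPM in zone 3 and 571, 482 and 259 CPM in zone 2, without a call (adjusted p = 0.102), and with the block it was 0.000862. In all 4 tested clock genes the replicate 3 library was the highest of its zone in both zones. gigz1a, a maize homolog of the clock gene GIGANTEA, had 42.9 and 373 CPM in zone 3 and 46.8, 63.4 and 525 CPM in zone 2, and gigz1b had 1.07 and 105 CPM in zone 3 and 3.17, 3.46 and 154 CPM in zone 2. In either gene the replicate 3 libraries were the high ones of both zones, and for neither was the step called (adjusted p = 0.992 and 0.986).

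Control leaves were compared over the same step. The fold changes of the steps come from different libraries, but all libraries share the filter, the scaling and the estimate of spread: without any single control library the UV-B calls numbered 1148 to 1595. By edgeR 3184 genes were called there (13.3%), 1400 higher (5.86%) and 1784 lower (7.46%) in zone 3. Called in both steps with the same sign were 1306 genes, 609 higher and 697 lower, which is 79.8% of the UV-B calls and 41.0% of the control calls, and 0 were called with opposite signs. Of the 1637 UV-B calls 1626 had the same sign in control (99.3%). The share over all tested genes was not taken, so this value has no base beside it. Genes called higher under UV-B had a median control log2 fold change of 1.68, and those called lower one of -1.57. Over the 14458 genes with at least 10 CPM in a UV-B zone, Pearson's r between the log2 fold changes of the steps was 0.895. Over all tested genes r was 0.659. Genes are not independent replicates.

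The gene lists can be set side by side over the steps, as values without a test of their difference. Genes of mitosis fell in 14 of 27 cases under UV-B and in 18 in control, with median log2 fold changes of -1.86 and -1.71. DNA replication genes fell in 6 of 21 cases under UV-B and in 11 in control, with medians of -1.59 and -1.64. Expansins rose in 4 of 11 cases in either step, with medians of 1.16 under UV-B and 0.93 in control, and light-reaction genes rose in 6 and 8 of 25 cases, with medians of 1.54 and 1.94. The medians lay farther apart in the secondary wall list, at 1.39 under UV-B and 0.10 in control, where 4 genes rose in either step and 1 fell in control. Of single genes, xth1 had log2 fold changes of 5.17 and 4.66, cyclin11 of -3.44 and -3.64 and PIP2-4 of 3.83 and 3.82 under UV-B and in control. CA had -2.26 and -0.39, and its control value was not called (adjusted p = 0.625).

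The difference between the steps was tested as such. It was called for 0 genes by edgeR, with 454 at an unadjusted p under 0.05, and for 0 by DESeq2 and 0 by limma-voom. A call in 1 step and not in the other is therefore not shown to be a difference. The following values belong to named genes that averaged at least 10 CPM in zone 2 or 3 of either treatment. Among such genes they have the smallest unadjusted p in each direction, with an adjusted p of 0.9999 each. gfa1 (GRMZM2G037001) was the 1 named gene called under UV-B with the opposite sign in control. It had 11.1 and 14.3 CPM in UV-B zone 3 and 4.86, 2.66 and 4.16 CPM in UV-B zone 2, beside 9.46, 8.37 and 4.34 CPM in control zone 3 and 8.76 and 8.04 CPM in control zone 2. The log2 steps differed by 1.86 ± 0.62 (edgeR, unadjusted p = 0.0108). Also with a more positive step under UV-B were TPS4 (difference 0.94 ± 0.36) and LIM5 (1.28 ± 0.52). With a more negative step under UV-B stood MIS12-1 (-1.44 ± 0.51), kin1 (-7.99 ± 3.18) and fea2 (-1.10 ± 0.41), which encodes a receptor-like protein of meristems. For kin1 the value rests on control zone 3 replicate 1, with 64.8 CPM against 0.39 and 0.964 CPM in the other control zone 3 libraries. GIF1 averaged under 10 CPM in these groups and was not ranked. Its difference was -5.455 ± 1.774 (edgeR, unadjusted p = 0.0141, adjusted p = 0.9999), with no read in UV-B zone 3.

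**Figure D4:**
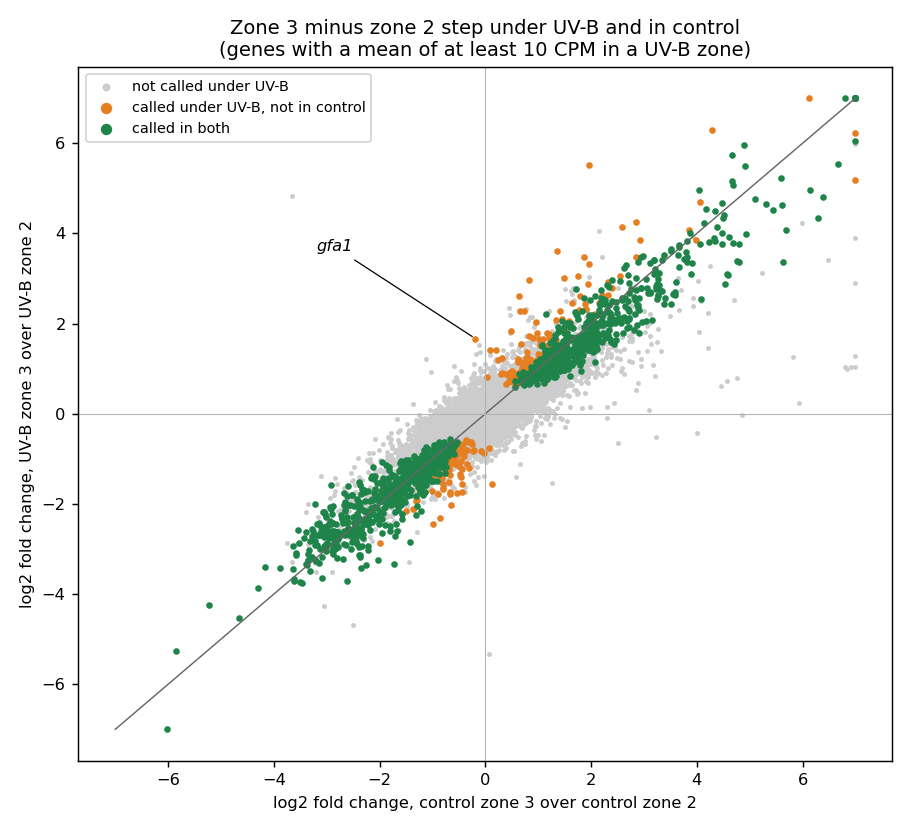
Log2 fold change of zone 3 over zone 2 under UV-B (vertical axis) against that in control (horizontal axis) for genes with at least 10 CPM in a UV-B zone, values past 7 drawn at 7, with the line of equality. Genes called in both steps are green, genes called under UV-B alone orange and the others grey. Points follow the line (r = 0.895 across 14458 genes), and gfa1, called under UV-B, sits to the left of 0.

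UV-B zone 1 had a single library, which was on neither side of the step but shared its fit (1723 calls without it). It lay below the zone 2 mean for 728 of the 800 genes called higher (91.0%), against 43.8% of all tested genes, and above it for 802 of the 837 genes called lower (95.8%), against 56.1%. Levels along UV-B zones 1, 2 and 3 thus had 1 direction for most called genes. GIF1 had 83.2 CPM in zone 1, a mean of 6.26 CPM in zone 2 and none in zone 3. dmt101 had 192 CPM in zone 1 and means of 96.5 ± 16.1 CPM (SD, n = 3) in zone 2 and 24.9 ± 9.9 CPM (n = 2) in zone 3. Upward, psad1 had 0.52 CPM in zone 1 and means of 4.90 ± 2.59 and 40.3 ± 3.90 CPM in zones 2 and 3, and ssu1 had 4.01 CPM in zone 1 and means of 58.9 ± 26.4 and 446 ± 82.3 CPM.

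**Figure D5:**
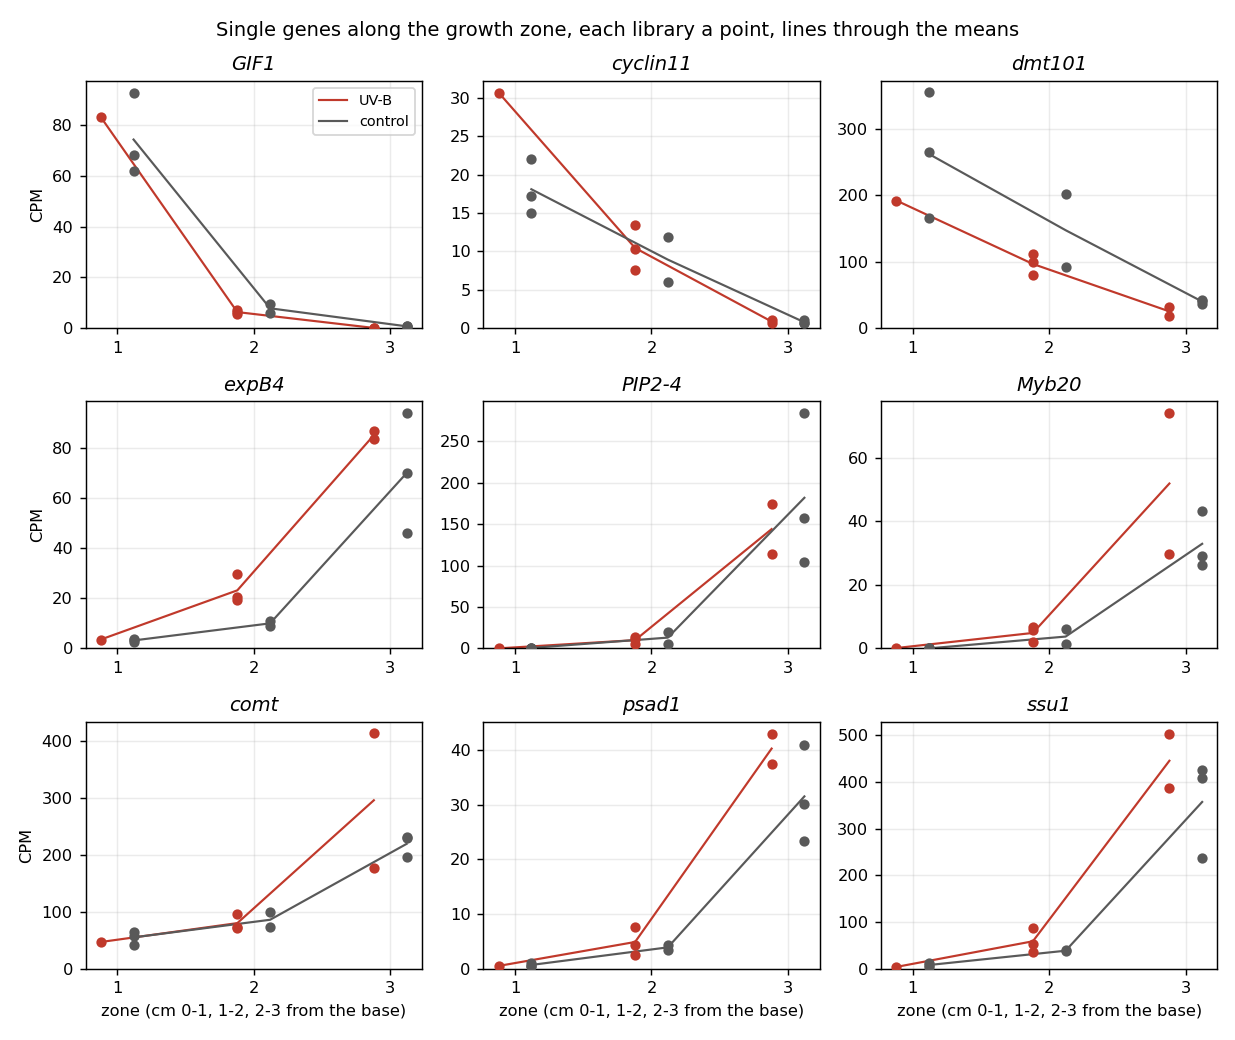
CPM in each library of zones 1, 2 and 3 for 9 genes under UV-B (red) and in control (grey), with lines through the means of each zone. GIF1, cyclin11 and dmt101 decline along the zones and the other 6 genes increase, ssu1 to 387 and 504 CPM in UV-B zone 3.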

How the data were processed

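RNA of maize leaf segments was sequenced as stranded mRNA libraries in 25-cycle paired-end runs, per the labels' protocols. The authors deposited read counts for each transcript, total and unique, per the file headers. No aligner, aligner setting or genome build is given in the sources used here, and coordinates are those of the deposited table. Another 21 value columns, of 3 libraries that match no sample of the labels, were not used.

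Total counts of 62892 transcripts were summed to 39145 genes. Names came from the table or from synonyms in RefSeq records of Zm-B73-REFERENCE-NAM-5.0, where 18842 genes matched a record and 521 more than 1. CPM are reads per 1000000 reads of all genes. The 14 libraries with over 1000000 reads were fitted together as 6 groups in edgeR 4.0.16 (R 4.3.3), after filterByExpr and TMM scaling, with 8 residual degrees of freedom, the two-sided quasi-likelihood F test and Benjamini-Hochberg adjustment over all 23899 genes tested. The other groups lend their spread to the 2 and 3 libraries compared. SE were derived from the F statistic. An exact permutation test of 2 against 3 libraries cannot pass 0.05 and was not used. Replicates may share conditions, so p-values measure the spread between these libraries. Intervals and floors cover counting error only. Thinning, DESeq2 1.42.0, limma 3.58.1 and other settings served as alternatives. The fit was also run on simulated data of independent libraries with a common spread and no replicate pairing. That run cannot speak for the dependence on single libraries or on the block seen here.

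Within a treatment, deviations from group means correlated in all 9 pairs of libraries of the same replicate number (r 0.135 to 0.662). The compared groups hold 2 of these (0.493 and 0.662). In the 18 pairs of unlike number r was -0.662 to 0.374, so the ranges overlap. The highest, 0.374, was between UV-B zone 2 replicate 1 and UV-B zone 3 replicate 2. The numbers were therefore taken to pair libraries, and values with a block for the number within each treatment stand beside the main ones. UV-B zone 2 replicate 1 has no partner under the block. The deviations of 2 libraries of a group mirror each other, so the correlations within the compared groups are not independent. For UV-B zone 2 replicate 2, r was 0.493 with UV-B zone 3 replicate 2 and -0.493 with UV-B zone 3 replicate 3. Values in pairs of unlike number are thus partly fixed by those in same-numbered pairs, and do not test the pairing separately.

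Named genes are the 10 largest rises and falls with a name, an adjusted p under 0.05, at least 10 CPM in the higher group, no overlap and 1 direction in both pairs, up to 3 called genes a list, and up to 2 abundant genes of other lists. For the difference between steps they are the 3 smallest p on each side, among named genes averaging at least 10 CPM in a compared group. Other genes were named where a count was 5 or fewer. The comparison, the 35 lists (565 genes, of which 482 passed the filter on low counts) and the rules were chosen with earlier results of these data known. Promoter motifs and sequences were not analysed here.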

Additional observations from a re-analysis of the deposited data

How the results depend on the processing

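The number of genes called between UV-B zone 3 and zone 2, 1637 as reported with 800 higher and 837 lower, moved with the settings. The split moved too, to 700 higher and 260 lower by limma-voom, 964 and 768 with DESeq2 size factors, and 1016 and 1400 without UV-B zone 3 replicate 2. DESeq2 called 2880, limma-voom 960, reads of a single transcript 445 and an adjusted p under 0.01 left 147. Fitted alone, the 5 libraries gave 0. Leaving out 1 library gave 0 (UV-B zone 3 replicate 3) to 2416 (UV-B zone 3 replicate 2). The value was 291 when replicate 2 of UV-B zone 2 was left out. DESeq2 size factors (1732), other filters (1568 and 1678), UV-B zone 3 replicate 1 kept (1706), thinning to 1673416 reads (1306) and a 2-fold minimum (1363) stayed within 1.5 times. DESeq2 size factors moved the median of all genes by 0.06. The causes were not tested, except that fewer libraries or reads were used where the setting says so.

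With the replicate block 5447 genes were called, 5421 with UV-B replicates 2 and 3 only, and, in fits added after the data were seen, 5303 with the compared groups alone, 5449 by limma-voom, and 2186 or 2521 when replicate 2 or 3 of UV-B zone 3 was left out and 2199 or 2513 when the same was done in UV-B zone 2. For the control step the block gave 7032, 5530 with the compared groups alone and 8379 by limma-voom, against 3184 as reported. There single-transcript reads gave 1526, an adjusted p under 0.01 gave 706, and leaving out 1 library gave 558 (control zone 2 replicate 3) to 3819. The values were 1088 without control zone 3 replicate 3 and 1558 without control zone 3 replicate 1. The difference between the steps had 0 calls under every setting run.

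Of 110 called genes in the naming rule, the lists and the families, 110 were called with the block and by DESeq2, 84 by limma-voom, 42 when replicate 2 of UV-B zone 2 was left out and 0 when replicate 3 of UV-B zone 3 was. With single-transcript reads 35 were called, 64 were not, 6 had no value and 5 changed sign: expB8 (-0.82), bronze1 (-3.89), ARF23 (0.45), cyclin4 (0.80) and PAL1 (-1.04). The changed signs were not called by edgeR with these reads, at adjusted p of 0.484, 0.558, 0.84, 0.0953 and 0.596 in that order. Among uncalled genes, pcr1 changed sign with single-transcript reads (-3.45), by limma-voom (-0.032) and without UV-B zone 3 replicate 2 (-2.47). So did gigz1a with DESeq2 size factors (0.05), by DESeq2 (0.062), by limma-voom (0.034), with the compared groups alone (0.001), with UV-B zone 3 replicate 1 kept (0.10), after thinning (0.13) and when zone 3 replicate 2 (0.81) or zone 2 replicate 3 (1.72) was left out under UV-B, in a leave-one-out range of -2.09 to 1.72. gigz1b did so by DESeq2 (0.079), after thinning (0.094) and without the same libraries (0.98 and 3.70), in a leave-one-out range of -5.39 to 3.70. Depth limits low genes: 3 reads are 1.79 CPM in UV-B zone 3 replicate 3.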

Other observations

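Families of transcription factors and enzymes were also grouped by the prefix of their names, taking prefixes with at least 15 tested genes, a grouping added after the data were seen. MYB genes rose in 5 of 24 cases and fell in none between UV-B zone 3 and zone 2. In the control step 4 of them rose and none fell. Their median log2 fold change was 1.48 under UV-B and 0.33 in control, against -0.08 for all genes under UV-B. The difference between the steps was not called for any gene. Beside MYB61, Myb20 and myb31, MYB30 averaged 51.7 ± 30.0 CPM in zone 3 (SD, n = 2) and 9.31 ± 5.25 CPM in zone 2 (n = 3), and MYB109 averaged 6.81 ± 8.12 and 0.481 ± 0.27 CPM. Without UV-B zone 3 replicate 3 the log2 fold change of MYB109 was 1.2, against 3.55 with it.

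The EREB, glutathione S-transferase, bHLH and bZIP families held calls in both directions. Of all tested genes 3.35% were called higher and 3.5% lower. The bHLH and bZIP counts, and the single NAC and AUX calls given below, lie near these shares. Of 23 EREB genes, of the ethylene-response type, 2 rose and 2 fell: EREB46 averaged 108 ± 91.2 CPM in zone 3 and 7.70 ± 6.75 CPM in zone 2 (log2 fold change 3.76, or 2.66 without UV-B zone 3 replicate 3), EREB85 had a log2 fold change of 1.71 ± 0.36, EREB171 one of -1.86 ± 0.33, and EREB161 averaged 0.107 ± 0.152 and 3.77 ± 0.852 CPM. The zone 3 values of EREB161, 0.214 and 0 CPM, lay below 0.473 CPM, the floor of 3 reads over the zone 3 libraries. Of 22 glutathione S-transferase genes, whose products detoxify reactive compounds, gst9, GST38 and gst14 rose and gst37 fell. gst9 averaged 153 ± 63.1 CPM in zone 3 and 56.5 ± 20.9 CPM in zone 2, with a log2 fold change of 1.40 ± 0.26, or 0.28 with single-transcript reads. With these reads gst14 had 0.26, against 0.76 with all reads, and bHLH30 had 0.19, against 1.68. Of 39 bHLH genes bHLH30 rose (108 ± 1.78 CPM in zone 3, 33.6 ± 11.5 CPM in zone 2) and bHLH84 fell, of 28 bZIP genes bZIP89 rose and bZIP103 fell, of 19 NAC genes NAC131 rose, and of 17 genes with the prefix AUX, AUX32 rose. None of 22 SBP, 16 MYBR or 18 PP2C genes was called by edgeR without the block. The block called 4, 3 and 3 of them, against 22.8% of all tested genes.

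In the called genes the replicate pairs gave like sizes of change, which the calls from these same libraries largely fix. In genes called higher the median log2 difference, with 0.5 CPM added, was 1.49 between the replicate 2 libraries and 1.69 between the replicate 3 libraries, and in genes called lower it was -1.74 and -1.79. The replicate 3 pair had the larger change for 476 of 800 and 518 of 837 genes. The pair differences correlated at r = 0.797 across genes with at least 10 CPM, which are not independent replicates.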
